A study of Mus musculus with 10 samples.

Results

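Inflammatory CC chemokines are small secreted proteins that draw leukocytes into tissue, and 9 genes of this system were described here: the ligands Ccl3, Ccl4, Ccl5, Ccl7, Ccl9 and Ccl11 and the receptors Ccr1, Ccr2 and Cx3cr1. They were the rows of the gene count table whose mouse Ensembl identifier carries one of these symbols, 9 of 21849 genes. All 9 had enough counts to be tested, as had 12929 genes in all. The tumours grew from CT26, a chemically induced mouse colon carcinoma line, implanted under the skin of BALB/c mice. The mice entered the experiment at 5 weeks of age. In the arginine-deficient group (5 tumours) they ate a diet without arginine, matched in calories, which began 1 week before implantation. In the normal-diet group (5 tumours) they ate the control diet. Tumours were taken on day 20, and each gave 1 library of total RNA from the whole tumour, so host cells and carcinoma cells were read together.

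Chemokines bind G protein-coupled receptors and steer cells that carry those receptors along a gradient. Ccl3, Ccl4 and Ccl5 are made by activated macrophages, T cells and natural killer cells, and Ccl3 and Ccl5 act on Ccr1. Ccl7 attracts monocytes through Ccr2 and also binds Ccr1, Ccl9 is a ligand of Ccr1 known from rodents, and Ccl11 (eotaxin) attracts eosinophils through Ccr3. Ccr2 lets classical monocytes leave the bone marrow and reach tumours, whereas Cx3cr1, a receptor of the related CX3C family, binds Cx3cl1 and marks patrolling monocytes and many tissue macrophages.

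RefSeq promoters on GRCm38.p6, from 250 bases before to 50 bases after the start, were at hand for 5 of the 9 genes (Ccl3, Ccl9, Ccr1, Ccr2 and Cx3cr1). Those of Ccl3, whose transcript varied most closely with that of its neighbour Ccl4, and of Ccl9, the ligand with the most counts, are shown 5′ to 3′ on the minus strand, at chr11:83649329-83649628 and chr11:83578587-83578886. Capitals mark matches, on either strand, to the TATA box TATAAA, the AP-1 motif TGANTCA, the PU.1 motif GAGGAA and the NF-kappaB consensus.
Ccl3: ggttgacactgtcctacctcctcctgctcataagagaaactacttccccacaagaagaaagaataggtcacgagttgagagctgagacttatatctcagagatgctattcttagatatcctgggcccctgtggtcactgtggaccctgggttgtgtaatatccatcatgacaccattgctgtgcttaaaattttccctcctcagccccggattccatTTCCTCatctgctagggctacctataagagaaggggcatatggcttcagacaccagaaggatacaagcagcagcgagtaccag
Ccl9: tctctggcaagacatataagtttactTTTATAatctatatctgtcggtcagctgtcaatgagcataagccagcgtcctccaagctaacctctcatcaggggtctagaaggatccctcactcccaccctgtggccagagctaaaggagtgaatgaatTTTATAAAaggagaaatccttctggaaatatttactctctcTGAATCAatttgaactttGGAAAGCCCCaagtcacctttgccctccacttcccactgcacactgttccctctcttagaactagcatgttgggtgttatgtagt
The Ccl9 window held 3 matches to TATAAA over both strands, 1 at -224 to -219 and 2 overlapping in 1 run at -94 to -87. It also held 1 TGANTCA at -53 to -47 and 1 NF-kappaB match at -35 to -26. The Ccl3 window held GAGGAA on the opposite strand at -33 to -28. Among 32851 RefSeq promoters of this length, 13.6% held TATAAA, 7.81% TGANTCA, 28.3% GAGGAA and 4.51% the NF-kappaB consensus. Of the other 3 windows, that of Ccr1 held GAGGAA, and those of Ccr2 and Cx3cr1 held none of the 4 motifs.

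On mm10 the 6 ligand genes lie on chromosome 11 and the 3 receptor genes on chromosome 9, all of them protein-coding. Ccl7 (ENSMUSG00000035373.2) spans positions 82045712 to 82047525 on the plus strand, followed by Ccl11 (ENSMUSG00000020676.2) at 82057823 to 82062955, also plus. Ccl5 (ENSMUSG00000035042.2) lies at 83525778 to 83530518, Ccl9 (ENSMUSG00000019122.8) at 83572919 to 83578636 and Ccl3 (ENSMUSG00000000982.5) at 83647844 to 83649355, all on the minus strand, and Ccl4 (ENSMUSG00000018930.3) at 83662584 to 83664683 on the plus strand. Cx3cr1 (ENSMUSG00000052336.7, minus strand) spans 119901616 to 120069879, Ccr1 (ENSMUSG00000025804.5, minus strand) 123962124 to 123968692 and Ccr2 (ENSMUSG00000049103.14, plus strand) 124101950 to 124113557. Each span covers the whole gene, with introns. Exonic bases inside the body of another gene made up 2% of Cx3cr1 and 0% of the other 8. Of the 6758 distinct stretches of 50 bases in the Ccr2 transcripts, 129 (1.91%) occurred in a transcript of another gene. The same share was 1.97% for Ccl9 and 1.06% for Cx3cr1, and it was 0% for Ccl3, Ccl4, Ccl5, Ccl7, Ccl11 and Ccr1. How reads that match several genes were treated was not stated in the labels.

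Library totals ran from 12013178 to 31530123 counts. Arginine-deficient replicate 3 stood apart: mitochondrially encoded genes took 9.97% of its counts, against 1.67% to 4.44% in the other 9 libraries, and skeletal muscle transcripts summed to 8706 CPM of the library total. Muscle transcripts reached 2259 CPM in arginine-deficient replicate 4 and 803 in normal-diet replicate 4, and at most 119 elsewhere. The libraries also differed in how abundance depended on GC content, with slopes from -0.51 in arginine-deficient replicate 3 to 0.36 in normal-diet replicate 5 (log2 units per 10 percentage points of transcript GC). Of 10 carcinoma cell markers 5 were tested, 2 higher and 3 lower on the deficient diet, and 0 passed an adjusted p of 0.05 by edgeR. The most abundant, Krt20, averaged 176 ± 50.1 CPM in deficient-diet tumours and 234 ± 32.1 CPM in normal-diet tumours (± SD over 5 libraries per diet), a log2 fold change of -0.42. That of Cdh1 was 0.74 (unadjusted p = 0.0294, adjusted p = 0.660 by edgeR). For Krt19 it was 1.12 with SE 0.74 (unadjusted p = 0.157, adjusted p = 0.902 by edgeR). Krt19 averaged only 0.575 CPM in deficient-diet and 0.272 CPM in normal-diet tumours, and reached at most 20 counts in a library. Epcam reached at most 9 counts in a library and Cdx2 at most 8. CPM here are counts scaled to a common library size after TMM factors, which adjust library totals so that most genes have a ratio near 1.

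The 9 transcripts covered a wide range of levels. Per kilobase of exon, Ccl7 was highest, at 46.3 ± 12.6 CPM per kb on the deficient diet and 39.4 ± 16.5 CPM per kb on the normal diet (SD, n = 5 each). Ccl9 followed at 32.4 ± 14.3 and 23.7 ± 4.48 CPM per kb on the deficient and the normal diet, and Ccr1 at 21.9 ± 4.75 and 19.8 ± 3.94 CPM per kb. Neighbours in that order overlapped between libraries. Next came Ccr2, at 7.67 ± 3.88 CPM per kb on the deficient and 8.62 ± 1.79 CPM per kb on the normal diet, and every library of Ccr1 lay above every library of Ccr2. Ccl3, Ccl4 and Ccl5 were close to each other per kilobase, each averaging 6.39 CPM per kb on the deficient diet and between 4.94 and 5.00 CPM per kb on the normal diet. Cx3cr1 averaged 6.09 ± 1.92 CPM per kb on the deficient diet, just below these 3, and 7.84 ± 3.44 CPM per kb on the normal diet, above them. Ccl11 was lowest, at 2.93 ± 1.35 and 2.26 ± 0.585 CPM per kb. From Ccr2 downward, each transcript overlapped its neighbour in this order between libraries.

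In none of the 9 genes was a difference between the diets larger than the spread between tumours detected. No gene of the 9 passed an adjusted p of 0.05 in the edgeR quasi-likelihood test over all 12929 genes, in which 7 genes (0.0541%) passed. At an unadjusted p under 0.05 there were 0 of 9, against 6.74% of all genes, and in 0 of 9 did the libraries of the diets fail to overlap, against 1.65% of all genes. The log2 fold change, deficient over normal diet, was above 0 in all 6 ligands and in Ccr1 and below 0 in Ccr2 and Cx3cr1, so in 7 of 9, against 50.3% of all genes. The median over the 6 ligands was 0.36, against 0.00 over all genes tested. The ligands also varied more between tumours, with a median biological coefficient of variation (spread beyond counting noise) of 32.2%, against 22.0% over all genes. Their values are not independent, as Ccl3 and Ccl4 rose and fell together between tumours. Exact two-sided permutation p-values for the difference in mean CPM ran from 0.206 for Ccl9 to 0.635 for Ccr2 over 9 comparisons, where the smallest that 5 libraries against 5 allow is 0.00794. In bulk tumour RNA, fewer cells of a type and less RNA per cell cannot be told apart.

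**Figure D1:**
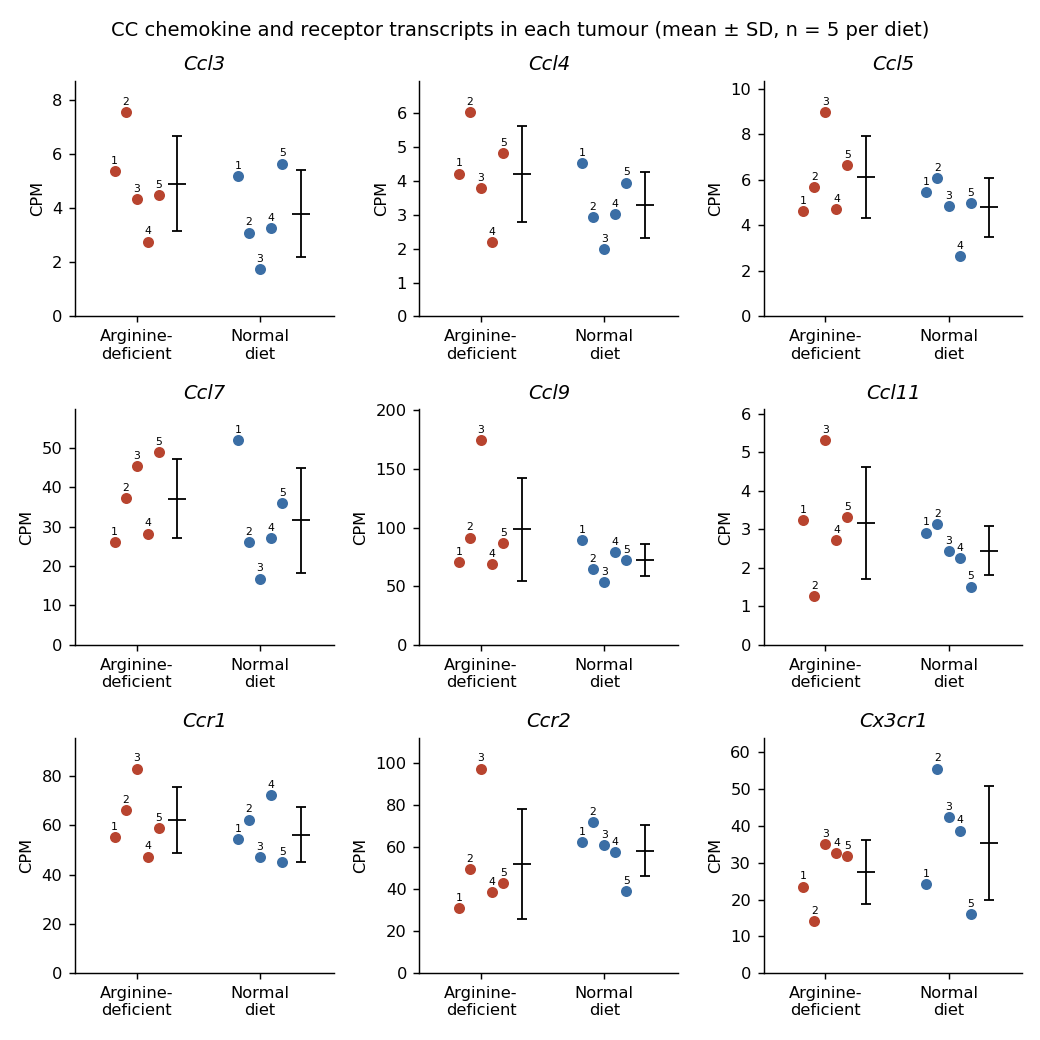
CPM (vertical axis, from 0) of each of the 9 transcripts in the 10 tumours, arginine-deficient diet on the left and normal diet on the right of each panel. Numbers are replicates, and the bar beside each group is its mean ± SD (n = 5). The diets overlap in every panel, and arginine-deficient replicate 3 is the highest library for Ccl5, Ccl9, Ccl11, Ccr1 and Ccr2.

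Ccl3 encodes a ligand of Ccr1 released by activated macrophages. It had 5.36, 7.55, 4.33, 2.76 and 4.47 CPM in arginine-deficient replicates 1 to 5, against 5.18, 3.09, 1.75, 3.27 and 5.64 CPM in normal-diet replicates 1 to 5. Deficient replicate 2 was the highest library and normal-diet replicate 3 the lowest, and the remaining 8 were intermixed. The log2 fold change was 0.38 (SE 0.34, 95% interval -0.36 to 1.12, edgeR adjusted p = 0.965). Ccl4, a close relative of Ccl3, had 4.22, 6.05, 3.78, 2.20 and 4.83 CPM on the deficient diet, against 4.53, 2.95, 2.00, 3.01 and 3.95 CPM on the normal diet. The same libraries were at either end as for Ccl3. Its log2 fold change was 0.36 (SE 0.30, 95% interval -0.29 to 1.003, edgeR adjusted p = 0.950). Without deficient replicate 2 the log2 fold changes of Ccl3 and Ccl4 were 0.17 and 0.19. Without normal-diet replicate 3 they were 0.19 and 0.22. Leaving out deficient replicate 4 gave 0.53 and 0.52, and leaving out normal-diet replicate 1 gave 0.52 and 0.50. Without normal-diet replicate 5 that of Ccl3 was 0.56 and that of Ccl4 0.43.

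Ccl5, made by cytotoxic T cells, natural killer cells and macrophages, had 4.63, 5.69, 8.99, 4.71 and 6.63 CPM on the deficient diet, against 5.45, 6.08, 4.85, 2.66 and 4.96 CPM on the normal diet. The highest library was deficient replicate 3 and the lowest normal-diet replicate 4, both among the 3 richest in muscle transcripts. Its log2 fold change was 0.35 (SE 0.26, 95% interval -0.21 to 0.92, edgeR adjusted p = 0.939). It was 0.08 without those 3 libraries, 0.17 without deficient replicate 3, 0.19 without normal-diet replicate 4 and 0.45 without normal-diet replicate 2. Ccl7, a monocyte attractant, had 25.9, 37.3, 45.2, 28.2 and 48.8 CPM on the deficient diet, against 51.9, 25.97, 16.8, 27.0 and 36 CPM on the normal diet. Both the highest and the lowest library were of the normal diet. The log2 fold change was 0.23 (SE 0.28, 95% interval -0.37 to 0.84, edgeR adjusted p = 0.982). It was 0.07 without normal-diet replicate 3, 0.11 without deficient replicate 5, 0.16 without deficient replicate 3 and 0.49 without normal-diet replicate 1.

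Ccl9 had the most counts of the ligands, 862 to 4797 per library, and the smallest p of the 9 genes. It had 70.6, 91.5, 175, 69.1 and 86.9 CPM on the deficient diet, against 89.6, 64.8, 53.9, 79.4 and 72.5 CPM on the normal diet. Deficient replicate 3 was the highest by far. Deficient replicate 2 lay just above the highest normal-diet library, and deficient replicates 1, 4 and 5 lay within the normal-diet range. The log2 fold change was 0.45 (SE 0.25, 95% interval -0.08 to 0.99, edgeR adjusted p = 0.828), and 0.15 without deficient replicate 3. Without deficient replicate 4 it was 0.56 with an unadjusted p of 0.0482 and an adjusted p of 0.786 by edgeR, where 6.29% of all genes had an unadjusted p under 0.05. In deficient replicate 3 the summed macrophage markers stood at 3261 CPM, within the normal-diet range of 2703 to 3805 CPM. Monocyte markers other than Fn1 summed to 786 CPM there, within the normal-diet range of 742 to 926 CPM. With Fn1 they summed to 3036 CPM, below the normal-diet range of 4568 to 6717 CPM. Carcinoma cell markers in that library, at 95.5 CPM, and inducers of chemokine genes, at 1574 CPM, also lay below the normal-diet tumours. Their normal-diet ranges were 191 to 291 CPM and 1904 to 2477 CPM. Krt20 alone held 87.4 of the 95.5 CPM. The other 4 tested carcinoma cell markers summed to 8.08 CPM in that library, against 10.3 to 24.5 CPM in normal-diet tumours. The part of these sums in the Ccl9 value was not tested. Ccl11, the eosinophil attractant, which fibroblasts make, was lowest of the 9, with 3.24, 1.26, 5.31, 2.72 and 3.32 CPM on the deficient diet, against 2.91, 3.14, 2.43, 2.25 and 1.51 CPM on the normal diet. Both ends of its range were deficient-diet libraries, replicates 2 and 3. Its log2 fold change of 0.37 (SE 0.34, 95% interval -0.37 to 1.11, adjusted p = 0.967 by edgeR) was 0.10 without deficient replicate 3, 0.56 without deficient replicate 2 and 0.25 without normal-diet replicate 5.

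Among the receptors, Ccr1, carried by monocytes, macrophages and neutrophils, varied least. It had 55.2, 66.0, 82.8, 47.2 and 58.9 CPM on the deficient diet, against 54.5, 62.2, 47.0, 72.0 and 45.1 CPM on the normal diet. Its highest library was 1.84-fold above its lowest, against 3.02-fold to 4.32-fold for the other 8 genes. The log2 fold change was 0.14 (SE 0.17, 95% interval -0.23 to 0.52, edgeR adjusted p = 0.984), and 0.02 without deficient replicate 3. Single libraries moved it otherwise to 0.07 without normal-diet replicate 5, 0.08 without normal-diet replicate 3, 0.23 without deficient replicate 4 and 0.24 without normal-diet replicate 4. Ccr2, the receptor of classical monocytes, had 31.0, 49.5, 97.1, 38.6 and 42.8 CPM on the deficient diet, against 62.3, 71.8, 60.8, 57.6 and 38.9 CPM on the normal diet. Deficient replicate 3 was the highest of all 10 libraries, whereas the other 4 deficient libraries lay below 4 of the 5 normal-diet libraries. Over all libraries the log2 fold change was -0.17 (SE 0.28, 95% interval -0.78 to 0.44, edgeR adjusted p = 0.998). Without deficient replicate 3 it was -0.52, with an unadjusted p of 0.0131 and an adjusted p of 0.322 by edgeR, in a fit where 10.6% of all genes had an unadjusted p under 0.05. The value lay closer to 0 without deficient replicate 1 (-0.04), deficient replicate 4 (-0.08) or normal-diet replicate 2 (-0.08), and was -0.29 without normal-diet replicate 5.

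Cx3cr1, found on patrolling monocytes and tissue macrophages, had 23.5, 14.1, 35.1, 32.6 and 31.9 CPM on the deficient diet, against 24.2, 55.5, 42.2, 38.7 and 16.0 CPM on the normal diet. Normal-diet replicates 2, 3 and 4 were above every deficient library, and normal-diet replicates 1 and 5 lay among the lower ones. The log2 fold change was -0.37 (SE 0.32, 95% interval -1.06 to 0.33, edgeR adjusted p = 0.960). It was -0.15 without normal-diet replicate 2 and -0.20 without deficient replicate 2. In the other direction it was -0.48 without normal-diet replicate 1 and -0.55 without normal-diet replicate 5. The transcript of its ligand Cx3cl1 averaged 2.64 ± 0.635 CPM in deficient-diet tumours and 4.38 ± 2.23 CPM in normal-diet tumours (± SD over 5 libraries per diet), a log2 fold change of -0.73 with SE 0.32 and an edgeR adjusted p of 0.706.

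**Figure D2:**
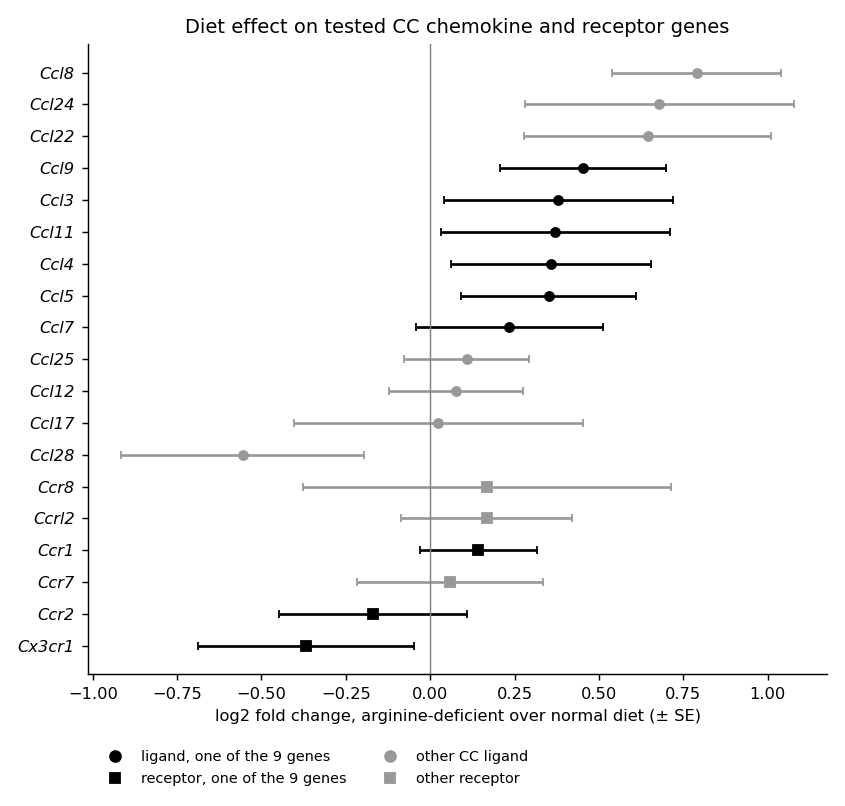
Log2 fold change, arginine-deficient over normal diet (horizontal axis, ± SE), of the tested CC ligands (circles, upper block) and of tested CC receptors with Ccrl2 and Cx3cr1 (squares, lower block); black marks the 9 genes described and grey the others. The 6 black ligands lie between 0.23 and 0.45, and the receptors between -0.37 and 0.17.

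Between tumours the members did not move as 1 block. With each diet's mean removed, Pearson's r of log2 CPM was above 0 in 28 of 36 pairs over the 10 libraries, and it passed an adjusted p of 0.05 (two-sided permutation of the libraries, Benjamini-Hochberg over 36 pairs) in 1, Ccl3 with Ccl4. For that pair r was 0.93 (permutation p = 0.00024, adjusted p = 0.00864), Spearman's rho was 0.96 (permutation p = 4e-05, adjusted p = 0.00144), and r was 0.90 without the 2 libraries farthest from the median of Ccl3. Within the diets r was 0.94 on the deficient and 0.98 on the normal diet, each over 5 libraries. The 2 genes shared no stretch of 50 bases.

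Ccl3 and Cx3cr1 ran opposite to each other. Their r was -0.80 (permutation p = 0.00652, adjusted p = 0.0976), their rho -0.88 (permutation p = 0.00155, adjusted p = 0.0279), and r was -0.80 without the 2 libraries farthest from the median of Ccl3, so the rank measure passed and Pearson's r did not. Within the diets r was -0.83 on the deficient and -0.77 on the normal diet. The 3 libraries highest in Ccl3 relative to their diet, deficient replicate 2 and normal-diet replicates 1 and 5, were the 3 lowest in Cx3cr1. The next pairs by p were Ccr1 with Ccr2 (r = 0.74), Ccl9 with Ccr1 (r = 0.73) and Ccl11 with Cx3cr1 (r = 0.74), each with an adjusted permutation p of 0.0976 and rho of 0.69, 0.67 and 0.64 (adjusted permutation p = 0.170, 0.177 and 0.198). Without the 2 libraries farthest from the median of the first gene, their r was 0.66, 0.68 and 0.65. Ccl5 was close to neither Ccl3 (r = 0.10) nor Ccl4 (r = 0.20).

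**Figure D3:**
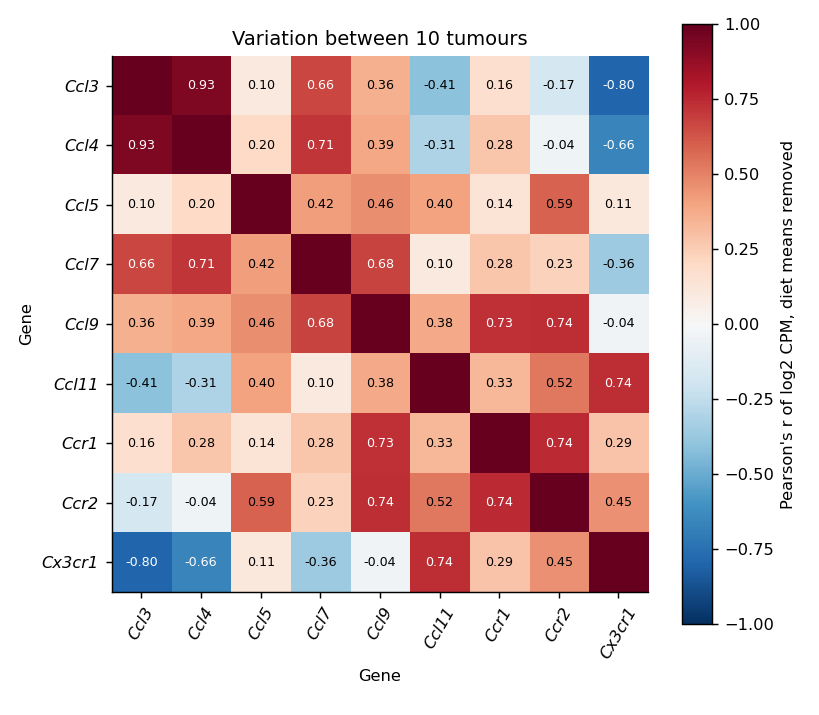
Pearson's r of log2 CPM for each pair of the 9 genes over 10 tumours, with diet means removed (colour scale from -1 to 1). Ccl3 and Ccl4 form the darkest red pair at 0.93, and the strongest blue is Ccl3 with Cx3cr1 at -0.80.

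The GC slope of the libraries was set against each of the 9 genes, a comparison chosen after the values were seen. Each slope was fitted to all tested genes, the 9 among them, so genes of low GC tend to run against it by construction. How many of all tested genes reach such an r was not counted, so the values show no trait particular to the 9. Over 9 comparisons with diet means removed, r with the slope was -0.83 for Ccr1 (permutation p = 0.00281, adjusted p = 0.0154; rho = -0.75, permutation p = 0.0176, adjusted p = 0.104) and -0.81 for Ccr2 (permutation p = 0.00343, adjusted p = 0.0154; rho = -0.60, permutation p = 0.0739, adjusted p = 0.166). For Cx3cr1 r was -0.70 (permutation p = 0.0239, adjusted p = 0.0715; rho = -0.72, permutation p = 0.0231, adjusted p = 0.104). With diet means removed, the 2 libraries farthest from the median slope were deficient replicate 3 and normal-diet replicate 2, both at the low end. Without them r was -0.73 for Ccr1, -0.45 for Ccr2 and -0.62 for Cx3cr1. Leaving them out also narrows the range of slopes, so the weaker r of Ccr2 does not show that its relation rests on those 2. The ligand Ccl11 was close to Cx3cr1, at r = -0.66 (permutation p = 0.0408, adjusted p = 0.0918; rho = -0.64, permutation p = 0.0542, adjusted p = 0.163), and at -0.31 without the same 2 libraries. For the other 5 ligands r ran from -0.54 for Ccl9 to 0.30 for Ccl3, with adjusted permutation p from 0.190 to 0.854. Without the same 2 libraries r was -0.07 for Ccl9, 0.33 for Ccl7, 0.37 for Ccl3 and 0.23 for Ccl4. For Ccl5 it went from -0.26 to 0.70. Within the deficient and the normal diet r was -0.94 and 0.17 for Ccl9, -0.84 and 0.25 for Ccl5, and -0.46 and 0.43 for Ccl7. For Ccl3 and Ccl4 it was positive in both diets. Transcript GC was 39.1% for Ccr1, 39.4% for Ccr2, 50.02% for Cx3cr1, 46.2% for Ccl3 and 49.2% for Ccl4. It was 53.2% for Ccl5, 42.95% for Ccl7, 43.8% for Ccl9 and 42.3% for Ccl11. With the slopes for GC and gene length added to the model, the log2 fold change of Ccr2 was -0.30 and that of Ccl9 0.32; Ccl9 alone of the 9 then had an unadjusted p under 0.05 (0.0109, adjusted p = 0.172 by edgeR), where 15.9% of all genes did.

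**Figure D4:**
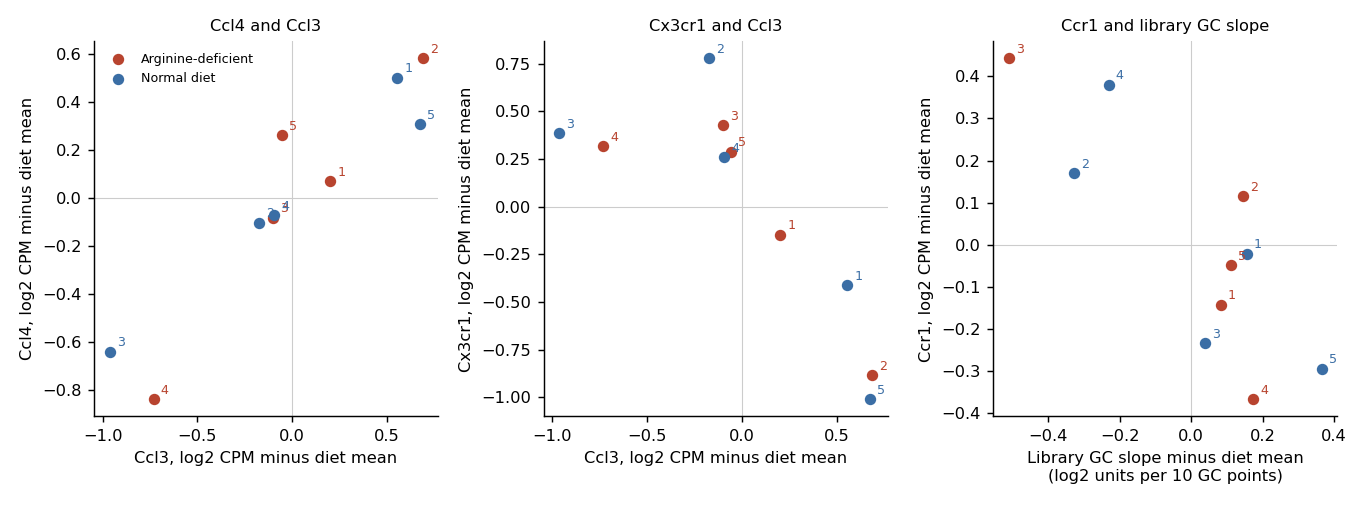
Log2 CPM minus the diet mean of Ccl4 against Ccl3 (left), of Cx3cr1 against Ccl3 (middle) and of Ccr1 against the GC slope of the library minus its diet mean (right); each point is 1 tumour, labelled with its replicate number. The points rise in the left panel (r = 0.93) and fall in the middle (r = -0.80) and right panels (r = -0.83).

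By the same measure, the genes most like each member were taken from 10152 protein-coding genes with a mean of at least 5 CPM. These are the highest of many values over 10 libraries that differ in depth and GC slope, and they are given as a description. Ccl3 was closest to Rabggtb (r = 0.92), Shisa5 (0.88) and Rpp38 (0.87), and Ccl4 to Rpp38 (0.92), As3mt (0.91) and Gpat3 (0.87). Ccl5 was closest to Treml2 (r = 0.96), Lbh (0.91) and Lpxn (0.89). Ccl7 was closest to Mlx (r = 0.96), Srp19 (0.89) and Ccl12 (0.88), the last a CC chemokine on the same chromosome. Ccl9 was closest to Zmat3 (r = 0.92), Fkbp1a (0.91) and Fam241a (0.90), and Ccl11 to Sept6 (0.96), Frmd4b (0.95) and Nudt5 (0.93). Among the receptors, Ccr1 was closest to Slc16a1, Dnajb9 and Pcnx4 (each r = 0.96), Ccr2 to Satb1 (0.99), Trmt6 (0.98) and Fam49b (0.97), and Cx3cr1 to Kif16b, Ccdc77 and Ints10 (each r = 0.96).

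The other CC chemokines, from a list of 16, had 7 tested genes, of which 6 were higher and 1 lower on the deficient diet (median log2 fold change 0.11) and 0 passed. Ccl8, which draws monocytes, had the smallest p, with 101 ± 12.7 CPM in deficient-diet tumours and 58.3 ± 20.1 CPM in normal-diet tumours (± SD over 5 libraries per diet), a log2 fold change of 0.79 with SE 0.25 and an edgeR adjusted p of 0.465. Of 8 other CC receptor genes 3 were tested (Ccr7, Ccr8 and Ccrl2), all 3 above 0 with a median of 0.17, and 0 passed. On the log2 fold change scale Ccrl2 stood at 0.17 (SE 0.25) and Ccr8 at 0.17 (SE 0.55). Ccr3, the receptor of Ccl11, reached at most 9 counts in a library. Of 4 atypical receptor genes 2 were tested, both above 0, and 0 passed: the decoy receptors Ackr2 and Ackr3, which take up chemokines without signalling through G proteins, stood at 0.76 (SE 0.58) and 0.12 (SE 0.13) on the log2 fold change scale.

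Of 24 chemokine and receptor genes outside the CC family 16 were tested, 9 above 0 and 7 below it (median log2 fold change 0.18), and 0 passed. Their smallest p belonged to Cxcl3, which draws neutrophils, with 6.51 ± 4.75 CPM in deficient-diet tumours and 1.95 ± 0.829 CPM in normal-diet tumours (± SD over 5 libraries per diet), a log2 fold change of 1.75 with SE 0.49 and an edgeR adjusted p of 0.369. The platelet chemokine genes Pf4 and Ppbp stood at 0.56 (SE 0.23) and 0.75 (SE 0.34) on that scale, with adjusted p of 0.688 and 0.738 by edgeR. Of 28 genes that carry signals from chemokine receptors 27 were tested, 13 above 0 and 14 below it (median log2 fold change 0.00), and 0 passed. For the kinase gene Ptk2b the log2 fold change was -0.31 (SE 0.12) and for Elmo1, a partner of Dock2 in cell migration, 0.49 (SE 0.19), with adjusted p of 0.625 and 0.639 by edgeR. Of 27 inducers of chemokine genes, among them cytokines and the NF-kappaB system, 22 were tested, 10 above 0 and 12 below it (median log2 fold change -0.02), and 0 passed. The NF-kappaB regulators Nfkbiz and Tnfaip3 had log2 fold changes of -0.29 with SE 0.12 and 0.31 with SE 0.13, at adjusted p of 0.666 and 0.688 by edgeR.

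Markers of the cells that make or carry these proteins gave the following levels. Macrophage markers (14 of 14 tested) summed to 3131 to 3756 CPM in deficient-diet tumours and 2703 to 3805 CPM in normal-diet tumours, with 7 higher and 7 lower. Of 14 monocyte markers 12 were tested, with 6 higher and 6 lower. Fn1, which encodes fibronectin and which fibroblasts also make, held 86.0% of their summed CPM. The other 11 summed to 705 to 836 CPM in deficient-diet tumours and 742 to 926 CPM in normal-diet tumours. T cell and natural killer cell markers (16 of 17 tested) summed to 122 to 286 CPM in deficient-diet tumours and 116 to 238 CPM in normal-diet tumours, with 12 higher and 4 lower. Fibroblast markers (12 of 12) summed to 2579 to 4266 CPM in deficient-diet tumours and 2958 to 3774 CPM in normal-diet tumours, with 6 higher and 6 lower. Neutrophil markers (9 of 12) summed to 49.7 to 91.4 CPM in deficient-diet tumours and 57.2 to 61.8 CPM in normal-diet tumours, with 3 higher and 6 lower. Mmp9 held 35.9% of the neutrophil sum. The other 8 summed to 33.9 to 48.0 CPM in deficient-diet tumours and 31.0 to 44.5 CPM in normal-diet tumours. Of 7 eosinophil markers 0 had enough counts to be tested, and Epx and Siglecf reached at most 2 and 6 counts in a library. No marker in these lists passed an adjusted p of 0.05. Their part in the levels of the 9 genes was not tested.

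Several relatives of the 9 genes were listed at 0 in all 10 libraries. Of 60 chemokine and receptor genes in the table, 10 lay wholly inside the body of another gene by their exons, and all 10 were listed at 0: Ccl2, Ccl6, Ccl19, Ccl21a, Ccr10, Ackr4, Xcl1, Cxcl10, Cxcl17 and Cxcr6. Of the 49 with under 50% of exonic bases inside another body 0 were listed at 0. Among all genes measured, 85.4% of those wholly inside another body were listed at 0, against 14.6% of those under 50%. A 0 for Ccl2, the main ligand of Ccr2, or for Ccl6, the neighbour of Ccl9, was therefore read as listed at 0 and not as absent from the tumours.

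**Figure D5:**
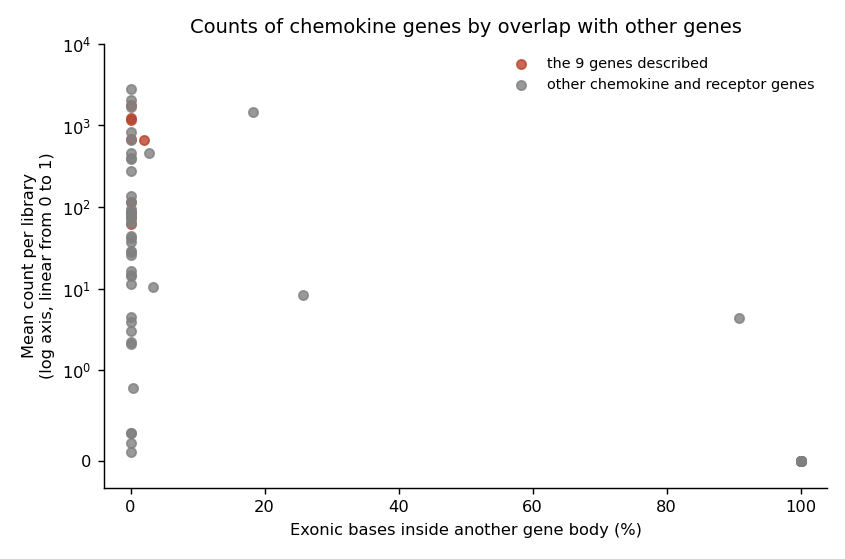
Mean count per library (vertical axis, logarithmic above 1 and linear below) against the share of exonic bases inside another gene's body for 60 chemokine and receptor genes; red marks the 9 genes described. The 9 lie at the left, at 0% or 2%, and the 10 genes at 100% are stacked at a count of 0.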

How the data were processed

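Gene-level read counts were used as the authors deposited them, whole and not normalized, with 1 column per tumour library; each column was tied to its sample by the number that ends the sample's description. The title prefixes Arg and Control were read as the 2 diets. Per the submitters' processing notes FastQC, STAR and featureCounts were used on mm10; the labels state no version, setting, strand or annotation. Symbols came from GENCODE M21 (21379 identifiers matched with version, 437 with another, 33 without symbol). No 2 libraries agreed within sampling noise (lowest chi-square per degree of freedom 16.7). Separate animals are taken from the design text.

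Diets were compared by the quasi-likelihood F test of edgeR 4.0.16 in R 4.3.3, with TMM scaling, filterByExpr (minimum count 10, minimum total 15), diet as the only term, Benjamini-Hochberg over 12929 genes, checked on simulated data. Standard errors were obtained by dividing the log2 fold change by the root of F. Library totals of 12013178 to 31530123 put Ccl11, at 18 to 146 counts, among the less precise values. Correlations used log2 CPM (prior count 2) and 100000 permutations. Named genes were the 9 members, up to 4 genes with unadjusted p under 0.05 or else the 2 smallest of each chemokine, receptor, signalling and inducer list, and the 3 genes most like each member. Members and lists were chosen with earlier results of these data known. Alternatives were other size factors and filters, DESeq2 1.42.0, limma 3.58.1 voom with sample weights, a replicate block, GC and length slopes, thinning, and leaving out libraries. One related gene is not reported here.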

Additional observations from a re-analysis of the deposited data

Results flagged for a closer look

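Of 18 groups of 5 libraries (9 genes, 2 diets), 2 held a library whose gap to the nearest other, divided by the range of the group, exceeded Dixon's critical value of 0.710, where chance flags about 1 group in 20. Both were arginine-deficient replicate 3, at 175 CPM of Ccl9 (next library 91.5 CPM, gap 0.787 of the range) and 97.1 CPM of Ccr2 (next library 49.5 CPM, gap 0.720 of the range). This is also the library with most muscle and mitochondrial counts and the lowest GC slope, and their part in these values was not tested.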

How the results depend on the processing

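In each of 20 alternatives all 9 genes kept the sign of their log2 fold change and 0 of them passed an adjusted p of 0.05. The range was 0.17 to 0.89 for Ccl3, 0.19 to 0.65 for Ccl4, 0.08 to 0.45 for Ccl5, 0.07 to 0.69 for Ccl7, 0.15 to 0.56 for Ccl9, 0.06 to 0.56 for Ccl11, 0.02 to 0.24 for Ccr1, -0.52 to -0.04 for Ccr2 and -0.57 to -0.15 for Cx3cr1. By limma voom with sample weights 6 of the 9 (Ccl3, Ccl4, Ccl7, Ccl9, Ccr2 and Cx3cr1) had an unadjusted p under 0.05, where 20.0% of all genes did, and the lowest adjusted p was 0.0772, for Ccr2. Over all genes, where 7 passed, DESeq2 called 127, limma voom 373 and the GC and length slopes 68, the fits without 1 library 0 to 16, the fit that dropped deficient replicates 3 and 4 and normal-diet replicate 4 (muscle) 18, and the fit that dropped deficient replicate 1 and normal-diet replicate 5 (highest Gapdh) 0, with 907 unadjusted edgeR p under 0.05. The causes were not tested. Of the member pairs, 2 passed with Spearman's rho. The replicate numbers did not pair the libraries (r of deviations from -0.26 to 0.37 between same-numbered libraries); with a replicate block 1 gene passed and the log2 fold changes of the 9 ran from -0.29 to 0.41. Low counts limit Ccl3, Ccl4, Ccl5 and Ccl11, which stood under 10 CPM in every library.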
